A study of Mus musculus with 32 samples.

Results

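The 10 amino acid transporter genes Slc38a2, Slc38a3, Slc38a4, Slc7a2, Slc7a5, Slc3a2, Slc43a1, Slc1a2, Slc1a5 and Slc16a10 were followed through liver and epididymal white adipose tissue (eWAT) of mice whose protein intake and glucocorticoid exposure were both altered. They were taken by symbol, as a named set of genes, from the 47643 Ensembl gene IDs of the count table. The set was chosen with earlier results of these data known. Counts of its members called, set beside the shares of all genes, are therefore descriptions and not tests. All 10 had an ID, all 10 passed the filter on low counts in liver, and 9 passed it in eWAT, where Slc1a2 had 0 counts in 13 of 16 libraries. The mice of every group were male, 10 weeks old and of the strain labelled C57BL/6 (C57BL/6J in the study's methods). Veh mice drank the vehicle and Cort mice drank corticosterone, the main glucocorticoid of rodents. The normal protein diet (NPD) gave 20% of its energy as protein and the high protein diet (HPD) 60%. By the study's methods the HPD also held less carbohydrate, as corn starch, so that the diets were equal in calories. A difference between the diets thus cannot be assigned to protein or to carbohydrate alone. Treatment and diet ran together for 7 days. Crossing drink and diet gave 4 groups, named here by drink and then diet (Veh NPD is the control), with 4 libraries of each in either tissue.

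Amino acid transporters of the solute carrier families move amino acids across the plasma membrane, and help set how much of the dietary supply a cell can take up or give out. Some work alone with sodium or pH gradients, and others, such as the Slc7a5 protein, reach the cell surface only when joined to the heavy chain encoded by Slc3a2. Liver takes up gluconeogenic and cationic amino acids after meals and under glucocorticoids, and fat takes up glutamine and branched-chain amino acids and releases glutamine and alanine.

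The libraries were made from the 3′ ends of messenger RNAs. A level in CPM (counts scaled to the same library total) thus carries no gene length and can be set beside that of another gene in the same tissue. The scaling was done within each tissue. In a joint fit of both tissues the scaling factors were 1.32 to 1.52 in eWAT and 0.518 to 0.754 in liver. Small differences in CPM between the tissues are therefore not read as an order. Total counts per library were 9794683 to 18057936 in eWAT (median 14486945.5) and 8933307 to 17447524 in liver (median 13304979.5). One liver library, Veh HPD replicate 4, stood apart from its group (median correlation with its group 0.914, against 0.966 to 0.985 in the other liver libraries) and was left out, so that liver Veh HPD had n = 3. Some of its values are given beside the results it changes. In eWAT, Cort HPD replicate 4 had the lowest such correlation (0.915) and held transcripts of epididymis and testis, with 7 of 8 markers detected in its group and a marker sum of 6729 CPM, against 0 to 11.0 in the other 15 eWAT libraries. Hepatocyte markers (8 of 8 detected) dominated the liver libraries, and adipocyte markers (8 of 8 detected) those of eWAT, as the tissue labels say. In these tissue homogenates, fewer cells of a type and less RNA per cell cannot be told apart.

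The members divided between the tissues by their levels. Liver was led by Slc38a4 (ENSMUSG00000022464, chr15:96994820-97055956, minus strand of GRCm38), a sodium-coupled carrier of small neutral amino acids, at a median of 955 CPM over 15 libraries (714 to 1238). Next came Slc38a3 (ENSMUSG00000010064, chr9:107650634-107669530, minus), which carries glutamine, histidine and asparagine, at 278 CPM (187 to 453), and Slc7a2 (ENSMUSG00000031596, chr8:40862396-40922308, plus), which carries arginine and lysine, at 266 CPM (195 to 439). In eWAT these 3 transcripts were low, with medians of 0.719, 0 and 2.48 CPM. The eWAT level of Slc38a4 was 0.0753% of its liver level, close to the 0.0630% that the summed hepatocyte markers reached there, and the part of stray liver RNA in it was not tested.

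Slc1a5 (ENSMUSG00000001918, chr7:16781340-16798274, plus), the exchanger of alanine, serine, cysteine and glutamine, showed the opposite distribution. Its median was 1314 CPM in eWAT (993 to 1863), where it ranked 62 by mean level among all genes, and 1.39 CPM in liver. Its liver level was 0.106% of that in eWAT, and the summed adipocyte markers in liver were at 0.184% of theirs. Slc3a2 (ENSMUSG00000010095, chr19:8706882-8723369, minus), the heavy chain, was also higher in eWAT, at 292 CPM (128 to 667) against 36.8 CPM (21.3 to 53.4). Slc1a2 (ENSMUSG00000005089, chr2:102658659-102790784, plus), a glutamate carrier known from glia and from hepatocytes around the central vein, was at 64.4 CPM in liver (46.1 to 103) and reached no more than 13 counts in any eWAT library.

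Both tissues held Slc38a2 (ENSMUSG00000022462, chr15:96687392-96699730, minus), the widely expressed sodium-coupled carrier of alanine and glutamine, at 56.4 CPM in liver and 72.3 CPM in eWAT. The same held for Slc16a10 (ENSMUSG00000019838, chr10:40033532-40142258, minus), a facilitated carrier of tyrosine, tryptophan and phenylalanine, at 40.3 and 26 CPM. Slc43a1 (ENSMUSG00000027075, chr2:84838850-84863594, plus), a facilitated carrier of branched-chain amino acids, was low in liver at 1.49 CPM and higher in eWAT at 7.71 CPM. Slc7a5 (ENSMUSG00000040010, chr8:121881150-121907694, minus), the light chain for large neutral amino acids, was low in both, at 0.757 and 2.12 CPM. In control (Veh NPD) liver, the ranges of Slc7a2 and Slc38a3 overlapped, as did those of Slc38a2, Slc1a2, Slc16a10 and Slc3a2 with their neighbours in the order of levels, whereas Slc38a4 lay above all the others. In control eWAT, Slc1a5, Slc3a2, Slc38a2, Slc16a10, Slc43a1 and Slc7a5 formed an order in which no neighbours overlapped. In the plot of levels by tissue, Slc38a3, Slc38a4, Slc7a2 and Slc1a2 sit above eWAT in liver, and Slc1a5 and Slc3a2 above liver in eWAT.

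**Figure D1:**
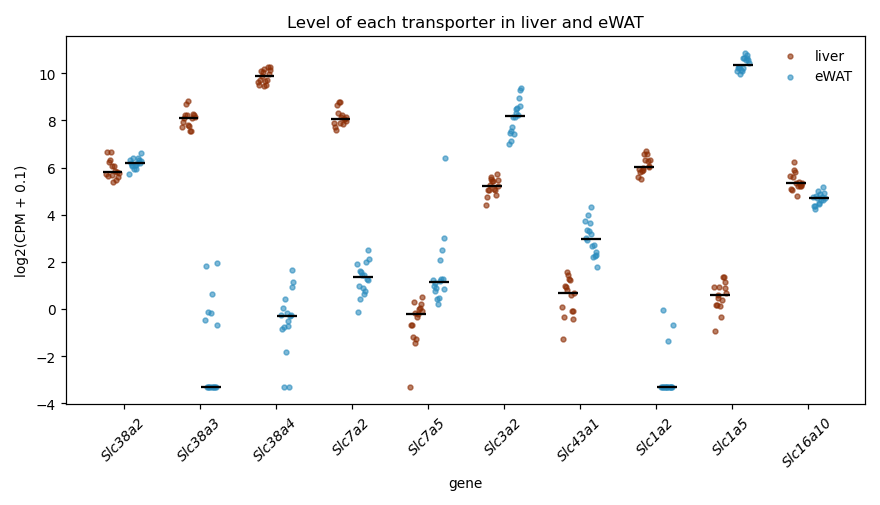
Level of each transporter as log2(CPM + 0.1) in the 15 liver and 16 eWAT libraries, 1 point per library with a bar at the median. Slc38a4 has the highest median in liver (955 CPM) and Slc1a5 in eWAT (1314 CPM), and the points at the bottom are libraries with 0 counts.

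Promoter sequences, from 250 bases before to 50 bases after a transcription start, were at hand for 6 of the 10 members (8 windows, RefSeq, GRCm38.p6). Those of Slc3a2 (chr19:8713848-8714147, minus strand), Slc43a1 (chr2:84840073-84840372, plus strand) and Slc1a2 (chr2:102706188-102706487, plus strand) are shown, because these genes carry the clearest differences with Cort described further on. All 3 windows lie inside the annotated spans of their genes, downstream of the first base. Each is written 5′ to 3′ in lower case, with capitals for the only motif match among them.
Slc3a2: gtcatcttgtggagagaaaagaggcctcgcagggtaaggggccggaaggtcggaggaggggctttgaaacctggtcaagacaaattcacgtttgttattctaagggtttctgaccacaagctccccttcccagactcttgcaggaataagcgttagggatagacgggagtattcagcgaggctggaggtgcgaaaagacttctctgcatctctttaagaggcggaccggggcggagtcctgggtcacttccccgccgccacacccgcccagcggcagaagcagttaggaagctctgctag
Slc43a1: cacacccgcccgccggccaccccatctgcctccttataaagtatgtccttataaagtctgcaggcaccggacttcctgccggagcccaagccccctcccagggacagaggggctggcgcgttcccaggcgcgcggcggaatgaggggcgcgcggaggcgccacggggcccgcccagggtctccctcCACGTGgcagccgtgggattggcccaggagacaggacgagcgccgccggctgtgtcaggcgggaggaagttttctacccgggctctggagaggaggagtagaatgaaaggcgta
Slc1a2: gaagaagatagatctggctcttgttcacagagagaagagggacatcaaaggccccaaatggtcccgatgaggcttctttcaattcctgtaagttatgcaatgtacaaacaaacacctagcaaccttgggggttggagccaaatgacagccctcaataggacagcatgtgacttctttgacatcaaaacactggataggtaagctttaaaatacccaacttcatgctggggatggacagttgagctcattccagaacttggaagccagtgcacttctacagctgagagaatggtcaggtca
The whole glucocorticoid response element (TGTTCT after its own reverse complement, with 3 bases of any kind between), TGTTCT alone (one side of it, contained in the whole), TGATGNAA (the core of the C/EBP-ATF response element) and CACGTG (the E-box) were searched on both strands. Among all 32851 promoter windows of the table, 0.00913%, 19.0%, 3.97% and 7.15% held them. The Slc43a1 window held CACGTG at -64 from the start, and 1 of 3 windows of Slc38a4 held TGTTCT at -108. No other member window matched, which says only that these letters were not in these windows.

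In eWAT of mice on the NPD, Cort was compared with Veh to find what the glucocorticoid did to the transporters under the usual protein supply. Slc3a2 and Slc1a5 rose and no member fell, so that 2 of the 9 members tested rose, where 4.05% of all 15187 genes tested rose, 3.93% fell and 7.98% were called in either direction. Slc3a2 stood at 128, 179, 138 and 188 CPM in Veh NPD and at 317, 360, 373 and 301 CPM in Cort NPD. The lowest Cort library lay above the highest Veh library. The mean went from 158 ± 29.4 to 338 ± 34.0 CPM (SD, n = 4), a log2 fold change of 1.09 ± 0.17 (SE) with an adjusted p of 0.00021 by edgeR's quasi-likelihood test with Benjamini-Hochberg adjustment over all genes tested. Slc1a5 was at 1093, 1190, 1238 and 1229 CPM in Veh NPD and at 1620, 1595, 1863 and 1519 CPM in Cort NPD, again without overlap. Its log2 fold change was 0.47 ± 0.11 (adjusted p = 0.0073, edgeR). The groups did not overlap for these 2 members and for 14.9% of all genes. Slc43a1 (log2 -0.57 ± 0.28, adjusted p = 0.26) and Slc7a5 (0.86 ± 1.02, adjusted p = 0.72) did not pass. With library totals in place of scaling factors the median of all genes was at -0.11, and 36.1% of called genes were higher, against 50.7% with the factors.

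On the HPD, the same comparison asked whether the glucocorticoid response of fat held on this diet. Slc3a2, Slc1a5 and Slc7a5 rose and Slc43a1 fell, 4 of 9 members against 6.09% of all genes (3.46% higher, 2.63% lower). Slc3a2 was at 209, 279, 173 and 283 CPM in Veh HPD and at 490, 386, 619 and 667 CPM in Cort HPD. Every Cort library was above every Veh library, and the mean went from 236 ± 54.3 to 540 ± 127 CPM (log2 1.19 ± 0.17, adjusted p = 0.00011, edgeR). Slc1a5 was at 993, 1120, 1094 and 1189 CPM in Veh HPD and at 1584, 1757, 1508 and 1390 CPM in Cort HPD, without overlap (log2 0.51 ± 0.11, adjusted p = 0.0056, edgeR). In a fit of these 2 groups alone its adjusted p was 0.054.

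Slc43a1 moved the other way in eWAT. It was at 15.7, 9.82, 12.3 and 20.1 CPM in Veh HPD and at 4.6, 5.16, 4.72 and 3.35 CPM in Cort HPD, so that all Cort libraries lay below all Veh libraries. Its mean went from 14.5 ± 4.46 to 4.46 ± 0.778 CPM, a 3.25-fold lower level (log2 -1.70 ± 0.29, adjusted p = 0.00041, edgeR). On the NPD its values were 13.3, 7.97, 7.46 and 10.2 CPM with Veh and 9.03, 6.32, 4.50 and 6.41 CPM with Cort, which overlapped. The difference between the Cort effects on the diets was -1.13 ± 0.40 (adjusted p = 0.86, edgeR), so a stronger effect on the HPD was not shown.

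The call for Slc7a5 rested on 1 library. Its levels were 1.78, 1.25, 1.04 and 1.30 CPM in Veh HPD and 2.34, 1.68, 8.04 and 84.6 CPM in Cort HPD, where the last value came from the library with epididymis and testis transcripts. The fitted log2 fold change of 4.17 ± 1.08 (adjusted p = 0.039, edgeR) became 1.59 (adjusted p = 0.12) without it, the call was lost in 17 of 23 alternatives, and the members called became 3. Slc38a5, a glutamine carrier outside the member list, had the same distribution, with 21.4 CPM in that library and 1.33 to 1.61 CPM in the other Cort HPD libraries. Slc3a2, Slc43a1 and Slc1a5 were called without this library too. On the HPD, groups did not overlap for Slc3a2, Slc43a1 and Slc1a5, and for 11.3% of all genes. Red blood cell markers (5 of 5 detected) were higher in Cort HPD eWAT, with sums of 12684 to 25856 CPM against 5251 to 9273 CPM in Veh HPD, as they were in liver (5271 to 7622 against 1913 to 3469 CPM), and their part in these differences was not tested.

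**Figure D2:**
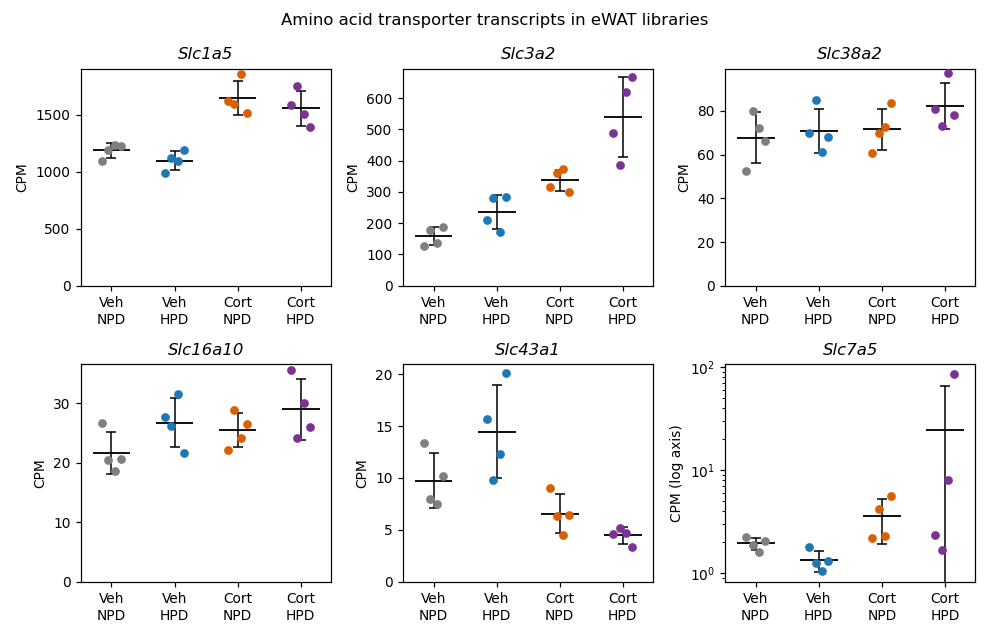
CPM of 6 transporters in eWAT, 1 point per library, with the mean and SD of each group (n = 4). Slc3a2 and Slc1a5 lie higher with Cort on both diets, Slc43a1 lies lower with Cort on the HPD, and Slc7a5 (log axis, where the lower end of 1 SD bar falls below the axis) has a single high value of 84.6 CPM in Cort HPD.

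The HPD on its own changed no member past the threshold in eWAT. With Veh, 0 of 9 members were called between HPD and NPD (edgeR), against 0.0593% of all genes, no member's groups stood apart (4.28% of all genes did), and 1 had an unadjusted p under 0.05. That member was Slc3a2, at a log2 fold change of 0.58 ± 0.17 (adjusted p = 0.26). With Cort, 0 of 9 were called by edgeR, against 0.487% of all genes, 2 had an unadjusted p under 0.05, and DESeq2 called 1. Slc3a2 was the member nearest to a call, since its 4 Cort HPD values (386 to 667 CPM) lay above its 4 Cort NPD values (301 to 373 CPM). Its log2 fold change was 0.68 ± 0.17 with an adjusted p of 0.090 by edgeR and 0.013 by DESeq2. Without Cort HPD replicate 2 the edgeR values were 0.81 and 0.020, and without Veh HPD replicate 3 they were 0.68 and 0.046. Slc38a4 also did not overlap between these groups (0.726 to 3.06 against 0 to 0.712 CPM), at levels near the floor of 3 counts (0.157 to 0.316 CPM). Such separation occurred in 6.66% of all genes. The interaction of diet and Cort was called for 0 of 9 members and 0.0132% of all genes (0.00658% in each direction), with 2 members at an unadjusted p under 0.05.

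In liver on the NPD, Cort raised a single member, the glutamate carrier Slc1a2, so that 1 of 10 rose against 6.84% of all 12391 genes tested (5.79% lower, 12.6% in either direction). Slc1a2 was at 48.0, 61.8, 55.7 and 46.1 CPM in Veh NPD and at 96.0, 80.8, 103 and 94.2 CPM in Cort NPD. The groups stood well apart, with means of 52.9 ± 7.25 and 93.4 ± 9.20 CPM (log2 0.82 ± 0.14, adjusted p = 0.00028, edgeR). On the HPD, Slc1a2 was at 57.4, 63.3 and 59.7 CPM with Veh and at 76.6, 64.4, 66.4 and 79.7 CPM with Cort, a log2 fold change of 0.25 ± 0.15 (adjusted p = 0.30). For this gene the diet by Cort interaction was -0.57 ± 0.20 (unadjusted p = 0.0094, adjusted p = 0.25, edgeR). With all 16 liver libraries fitted, the NPD value was 0.83 but its adjusted p was 0.19. In that left-out library Slc1a2 was at 9.76 CPM, the lowest of the 16 liver libraries.

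Slc1a2 was set beside genes of the hepatocytes around the central vein, where glutamate is taken up and made into glutamine. Glul, the glutamine synthetase, was at 594 to 657 CPM in Veh NPD and at 694 to 816 CPM in Cort NPD (log2 0.28 ± 0.15, adjusted p = 0.25). Between the Cort groups, HPD against NPD, Glul (446 to 706 against 694 to 816 CPM) had a log2 fold change of -0.45 ± 0.15 (adjusted p = 0.083) and Slc1a2 one of -0.38 ± 0.14 (adjusted p = 0.099), and neither passed. Rhbg, an ammonium carrier of the same cells, fell between them (16.2 to 29.7 against 8.72 to 13.5 CPM, log2 -0.99 ± 0.26, adjusted p = 0.028, edgeR). Oat, ornithine aminotransferase, moved the other way, from 179 to 394 CPM in Cort NPD to 449 to 588 CPM in Cort HPD (log2 0.90 ± 0.20, adjusted p = 0.010, edgeR). Cyp2e1, a cytochrome of the same zone, fell with Cort under both diets, first on the NPD (log2 -0.70 ± 0.18, adjusted p = 0.014, edgeR) and then on the HPD (log2 -1.04 ± 0.20, adjusted p = 0.0016). With Cort on the NPD, Oat also fell (log2 -0.65 ± 0.20, adjusted p = 0.038, edgeR). Rhbg (0.72 ± 0.26), Cyp1a2 (-1.21 ± 0.41), Axin2 (-0.78 ± 0.38), Lgr5 (-0.19 ± 0.36) and Tbx3 (0.05 ± 0.30) were not called there. Cyp1a2 fell on the HPD (log2 -1.62 ± 0.43, adjusted p = 0.034, edgeR). The 8 zone markers summed to 2594 to 3218 CPM in Veh NPD and to 1919 to 2473 CPM in Cort NPD. In the library left out, Glul was at 96.6 CPM against 446 to 816 CPM, and Rhbg at 3.83 against 8.28 to 29.7 CPM. Of the 8 markers of this zone, Cyp2e1 (177 against 579 to 1754 CPM) and Tbx3 (7.46 against 12.3 to 48.4 CPM) were also below the fitted range there, and Oat, Lgr5, Axin2 and Cyp1a2 were within it. The share of the sampled liver that these cells made up was not tested.

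**Figure D3:**
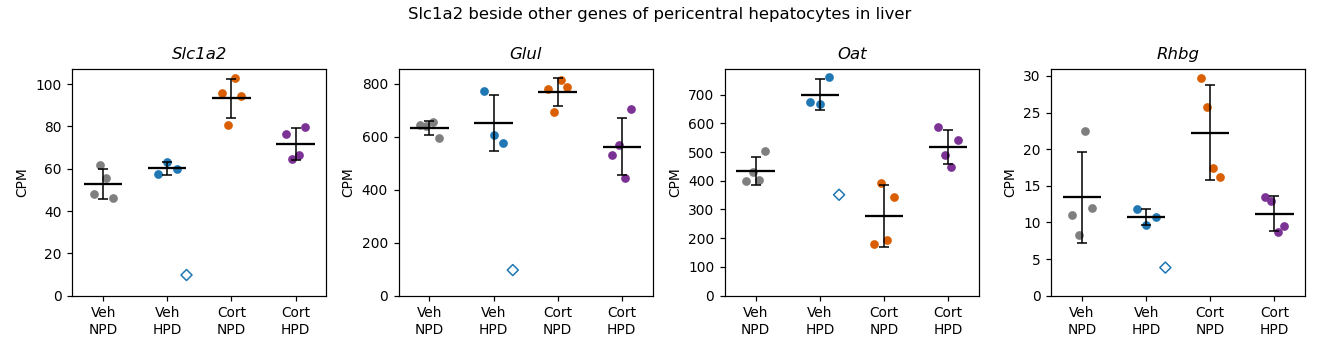
CPM of Slc1a2, Glul, Oat and Rhbg in liver, 1 point per library, with group means and SD (n = 4, Veh HPD n = 3) and an open diamond for the Veh HPD library left out. Slc1a2 lies highest in Cort NPD (80.8 to 103 CPM), Oat lies lowest there, and the open diamond lies below all other values for Slc1a2, Glul and Rhbg.

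The other members did not pass on the NPD. Slc3a2 was at 21.3 to 33.2 CPM with Veh and 33.2 to 42.9 CPM with Cort, a log2 fold change of 0.42 ± 0.19 (adjusted p = 0.15, edgeR), and its groups lay next to each other without overlapping. Lack of overlap was seen for 2 members, Slc3a2 and Slc1a2, and for 18.5% of all genes. Slc43a1, at 0.319 to 1.86 and 1.40 to 2.62 CPM, had a log2 fold change of 1.13 ± 0.43 (adjusted p = 0.087), which became 1.66 (adjusted p = 0.020) without Veh NPD replicate 4.

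On the HPD, Cort lowered the aromatic amino acid carrier Slc16a10 and the alanine and glutamine carrier Slc38a2 in liver, 2 of 10 members against 5.14% of all genes lower, 4.75% higher and 9.89% called. Slc16a10 was at 75.3, 58.9 and 56.6 CPM in Veh HPD and at 36.6, 38.0, 37.5 and 40.5 CPM in Cort HPD. The Cort values lay close together and below all Veh values (63.6 ± 10.2, n = 3, against 38.2 ± 1.68, n = 4), a log2 fold change of -0.74 ± 0.18 (adjusted p = 0.0093, edgeR). Without Veh HPD replicate 1 it was -0.60 (adjusted p = 0.071). Slc38a2 was at 79.6, 101 and 67.8 CPM in Veh HPD and at 44.1, 56.4, 48.6 and 55.1 CPM in Cort HPD, without overlap (log2 -0.70 ± 0.21, adjusted p = 0.041, edgeR). This call was lost when any 1 Cort HPD library, Veh HPD replicate 1 or Veh HPD replicate 2 was left out, with the largest adjusted p, 0.21, without Veh HPD replicate 2 (log2 -0.51). It was also lost with all 16 libraries (log2 -0.57, adjusted p = 0.10). On the NPD, Cort gave log2 changes of -0.17 ± 0.17 for Slc16a10 (adjusted p = 0.55, edgeR) and -0.37 ± 0.20 for Slc38a2 (adjusted p = 0.25). Mean Slc16a10 was 41.3 CPM in Veh NPD and 36.6 CPM in Cort NPD. The interactions were -0.57 ± 0.24 (adjusted p = 0.35, edgeR) for Slc16a10 and -0.33 ± 0.29 (adjusted p = 0.68) for Slc38a2. A Cort effect particular to the HPD was thus not shown.

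Slc7a2, the arginine and lysine carrier, was at 319, 438 and 439 CPM in Veh HPD and at 251 to 282 CPM in Cort HPD, below it in every library (log2 -0.58 ± 0.20, adjusted p = 0.068), and Slc38a3 had a log2 fold change of -0.42 ± 0.16 (adjusted p = 0.11). Groups did not overlap for Slc38a2, Slc7a2, Slc43a1, Slc1a2 and Slc16a10, and for 21.2% of all genes. In the Veh HPD library left out, Slc43a1 was at 1.38 CPM, within its Cort HPD range of 0.640 to 1.49 CPM. In this comparison the scaling of the libraries carried weight. Hepatocyte markers summed to 138546 to 247294 CPM in Cort HPD and to 68593 to 81921 CPM in Veh HPD, and with library totals in place of scaling factors the median of all genes was at -0.24. On that scale 17.8% of the called genes were higher, against 48.0% with the factors, and 5 members were lower, with Slc38a3, Slc7a2 and Slc43a1 added. Macrophage markers (6 of 6 detected) were lower with Cort, at 64.3 to 95.6 against 104 to 136 CPM on the HPD, and their part in the lower Slc16a10 and Slc38a2 was not tested.

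**Figure D4:**
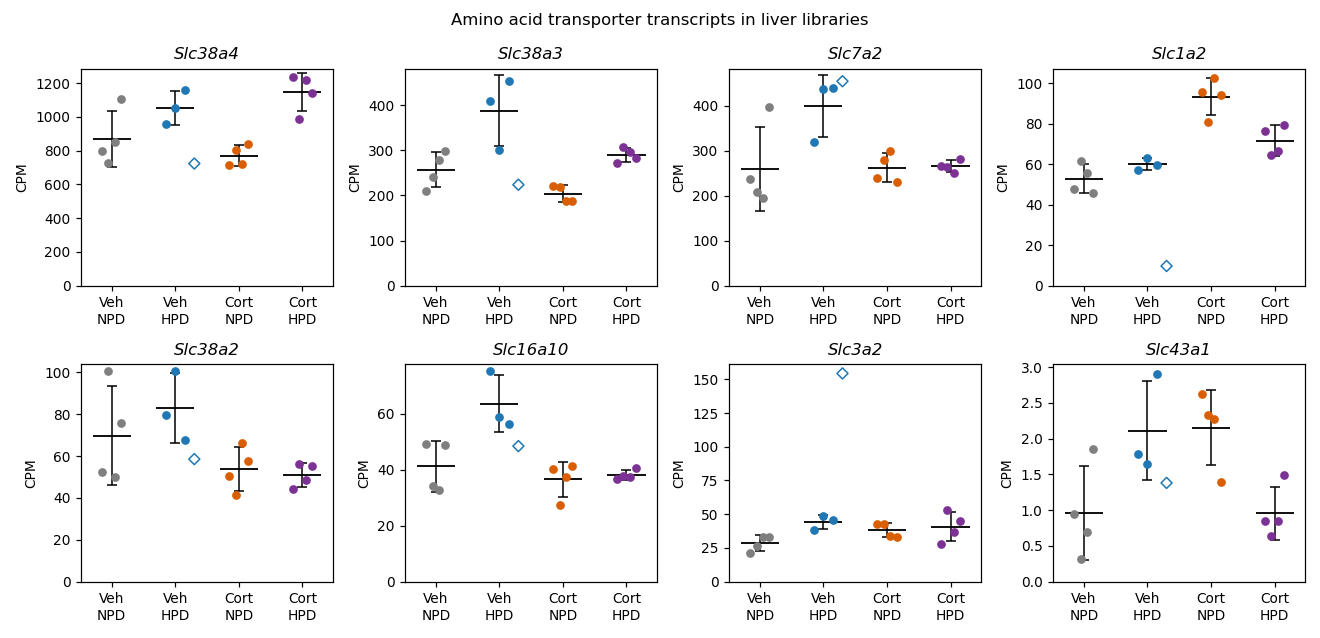
CPM of 8 transporters in liver, 1 point per library, with group means and SD (n = 4, Veh HPD n = 3) and an open diamond for the Veh HPD library left out. Slc1a2 is highest in Cort NPD (80.8 to 103 CPM) and Slc16a10 in the fitted Veh HPD libraries (56.6 to 75.3 CPM). Slc38a4 is lower in Cort NPD than in Cort HPD. The open diamond lies at 154 CPM for Slc3a2 and at 48.5 CPM for Slc16a10.

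The diets were compared under each treatment to ask how the liver transporters followed the diet. Without Cort, 0 of 10 members were called (edgeR), against 0.169% of all genes (0.0646% lower), while 5 had an unadjusted p under 0.05 and DESeq2 called 1, Slc38a3. All 10 members had a log2 fold change above 0, with a median of 0.61, where the median of all genes was 0.00 and 50.4% of them were above 0. With library totals in place of scaling factors 10 of 10 were above 0, as they were with any 1 library left out, and 9 of 10 were with all 16 libraries. The members share the libraries compared, so this count is a description and not a test. Slc16a10 went from 32.7 to 49.4 CPM in Veh NPD to 56.6 to 75.3 CPM in Veh HPD (log2 0.62 ± 0.18, adjusted p = 0.18, edgeR). Slc38a3 was at 210, 241, 278 and 299 CPM in Veh NPD and at 410, 300 and 453 CPM in Veh HPD, with no overlap (log2 0.59 ± 0.16, adjusted p = 0.17). Slc3a2 was at 21.3 to 33.2 and 38.6 to 48.3 CPM, also without overlap (log2 0.63 ± 0.20, adjusted p = 0.25), and Slc7a2 had a log2 fold change of 0.62 ± 0.20 (adjusted p = 0.27). Without Veh NPD replicate 4, where Slc7a2 was at 397 CPM against 195 to 237 CPM in the rest of its group, the value for Slc7a2 was 0.90 (adjusted p = 0.023). Slc38a3, Slc3a2 and Slc16a10 did not overlap between the groups, nor did 9.47% of all genes. In the Veh HPD library left out, Slc38a3 was at 224 CPM and Slc16a10 at 48.5 CPM. Both values lay within the Veh NPD range, so these separations do not hold with that library.

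With Cort, the HPD raised the neutral amino acid carriers Slc38a4 and Slc38a3, 2 of 10 members against 3.08% of all genes higher, 2.8% lower and 5.88% called. Slc38a4 was at 714, 806, 724 and 841 CPM in Cort NPD and at 1238, 988, 1216 and 1140 CPM in Cort HPD. No values overlapped, and the mean went from 771 ± 62.1 to 1146 ± 113 CPM (log2 0.57 ± 0.15, adjusted p = 0.029, edgeR). Slc38a3 was at 221, 219, 187 and 187 CPM in Cort NPD and at 273, 306, 297 and 282 CPM in Cort HPD, again apart (log2 0.51 ± 0.15, adjusted p = 0.0495, edgeR). Both sat near the threshold, and the call was lost in 7 of 23 alternatives for Slc38a4 and in 15 of 23 for Slc38a3. With all 16 liver libraries the adjusted p was 0.092 for Slc38a4 and 0.15 for Slc38a3, and with library totals it was 0.090 and 0.20. Without Cort NPD replicate 3 it was 0.083 and 0.13. On library totals the median of all genes was at -0.18 and the share of called genes that were higher was 23.2%, against 52.4% with scaling factors. Slc1a2 was lower on the HPD in every library (64.4 to 79.7 against 80.8 to 103 CPM), without a call (adjusted p = 0.099) except on library totals (log2 -0.56, adjusted p = 0.029). Groups did not overlap for these 3 members and for 13.3% of all genes.

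The interaction of diet and Cort in liver was called for 0 of 10 members by edgeR, against 0.113% of all genes (0.0565% in each direction), with 4 at an unadjusted p under 0.05 and 1 called by DESeq2. That member was Slc43a1, whose means were 0.955 ± 0.657 CPM in Veh NPD, 2.11 ± 0.692 in Veh HPD, 2.15 ± 0.526 in Cort NPD and 0.953 ± 0.367 in Cort HPD. Its mean was higher with either the HPD or Cort alone (19 to 43 and 23 to 34 counts) than with neither or both (3 to 22 and 10 to 20 counts). The floor of 3 counts was at 0.167 to 0.319 CPM. The interaction was -2.28 ± 0.62 (adjusted p = 0.16 by edgeR and 0.039 by DESeq2). Of the 10 members, 8 had an interaction below 0, with a median of -0.50 where that of all genes was 0.00. The interaction subtracts the diet effect under Veh, which was above 0 for all 10 members in the same libraries. This count is therefore a description and not a separate result.

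A fit of both tissues, 31 libraries and 16482 genes, tested whether the mean Cort effect over both diets differed between liver and eWAT. It was lower in liver for Slc3a2, Slc38a2 and Slc16a10, 3 of 10 members against 3.88% of all genes lower and 7.76% called. The labels do not say which liver and eWAT came from 1 mouse, and the fit took the libraries as independent. Liver and eWAT libraries of the same group and number had correlations of their deviations from -0.042 to 0.173 over 15 pairs (3 over 0.1). The differences of the log2 effects, liver minus eWAT, were -0.99 ± 0.19 for Slc3a2 (adjusted p = 0.00074, edgeR), -0.67 ± 0.18 for Slc38a2 (adjusted p = 0.018) and -0.63 ± 0.17 for Slc16a10 (adjusted p = 0.015). Slc3a2 rose with Cort in eWAT and had log2 changes of 0.42 and -0.11 in liver, whereas Slc38a2 and Slc16a10 fell in liver on the HPD and had eWAT changes of 0.08 to 0.24 on either diet. Without liver Veh HPD replicate 2 the difference for Slc38a2 was -0.59 (adjusted p = 0.052). Slc43a1 had a difference of 1.12 ± 0.37 that did not pass (adjusted p = 0.054) and that passed in 10 of 37 alternatives. The diet effect under Cort differed between tissues for 0 of 10 members (edgeR), against 1.23% of all genes (0.382% higher), with 2 at an unadjusted p under 0.05 and a median of all genes of -0.12. In the plot of effects, the filled points of eWAT lie at Slc3a2 and Slc1a5 under Cort on both diets and also at Slc43a1 and Slc7a5 on the HPD, and those of liver lie at Slc1a2, Slc16a10, Slc38a2, Slc38a4 and Slc38a3, each in 1 comparison.

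**Figure D5:**
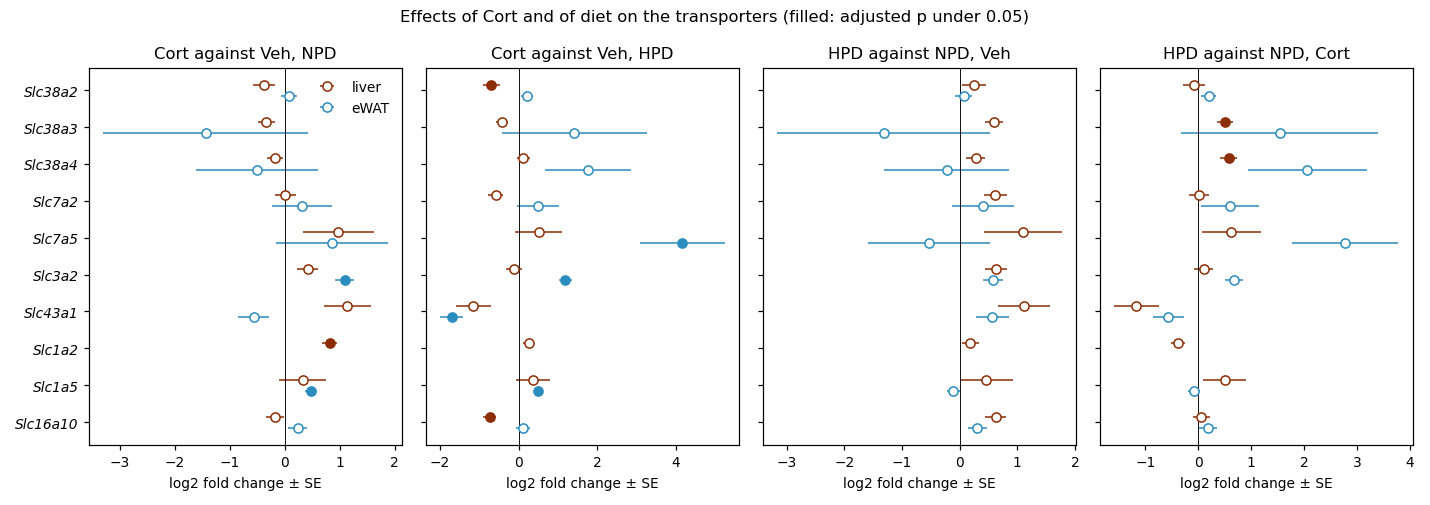
Log2 fold change ± SE of each transporter for Cort against Veh on each diet and for HPD against NPD under each treatment, in liver and eWAT, with filled points for an adjusted p under 0.05 (edgeR). Slc3a2 lies at 1.09 and 1.19 in eWAT with Cort, Slc1a2 at 0.82 in liver with Cort on the NPD, and all 10 liver points lie above 0 for HPD against NPD with Veh.

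Other plasma membrane amino acid transporters, 32 genes of which 17 were tested in liver and 25 in eWAT, were read beside the members. In liver, Slc3a1, the heavy chain for cystine and dibasic amino acids and the relative of Slc3a2, rose with Cort on both diets. It was at 16.3 to 21.7 CPM in Veh NPD and 24.2 to 47.5 CPM in Cort NPD (log2 0.92 ± 0.21, adjusted p = 0.0044, edgeR). On the HPD it went from 23.4, 28.0 and 19.5 CPM with Veh to 163, 106, 101 and 99.0 CPM with Cort (log2 2.31 ± 0.23, adjusted p = 7.8e-07). The glycine carrier Slc6a9 rose on the NPD, from 10.4 to 17.5 CPM to 40.4 to 48.8 CPM (log2 1.62 ± 0.23, adjusted p = 7.8e-05, edgeR). Of the 17 tested in liver, 3 rose and 1 fell with Cort on the NPD, 1 rose and 1 fell on the HPD, and 1 rose and 2 fell with the HPD under Cort. Beside these, 6.84% of all genes rose and 5.79% fell with Cort on the NPD, and 4.75% and 5.14% on the HPD. With the HPD under Cort, 3.08% of all genes rose and 2.8% fell.

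Under Cort, 4 of the 25 tested in eWAT rose when mice ate the NPD, 3 rose when they ate the HPD, and none fell (edgeR). Of all genes, 4.05% rose and 3.93% fell on the NPD, and 3.46% and 2.63% on the HPD. Slc7a8 and Slc7a6, light chains that pair with Slc3a2, were among the other transporters that rose. Slc7a8 went from 13.6, 28.3, 22.5 and 27.3 CPM to 39.1, 56.4, 42.8 and 42.6 CPM on the NPD (log2 0.98 ± 0.25, adjusted p = 0.018, edgeR) and from 29.8 ± 10.8 to 68.8 ± 10.4 CPM on the HPD (log2 1.2 ± 0.25, adjusted p = 0.0054). Slc7a6 went from 8.07 to 14.7 CPM to 19.4 to 25.9 CPM on the NPD (log2 1.17 ± 0.23, adjusted p = 0.0012, edgeR). Slc6a13, a carrier of GABA and taurine, rose by 0.71 ± 0.16 and 0.84 ± 0.17 on the NPD and HPD (adjusted p = 0.0057 and 0.0017). The other gene called on the HPD was Slc38a5, whose call was lost without the library with epididymis transcripts (adjusted p = 0.33). Among 11 lysosomal transporters tested in eWAT, Mfsd12, which carries cysteine into lysosomes and melanosomes, rose on both diets (log2 1.2 ± 0.20 and 1.0 ± 0.20), and 0 of 11 in liver were called by edgeR in any comparison of diet or Cort.

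Of 10 mitochondrial amino acid carriers tested in liver, Sfxn1, Slc25a12 and Slc25a15 rose with Cort on both diets and none fell, beside 6.84% of all genes higher on the NPD and 4.75% on the HPD. Scaled to library totals, 2 and 1 of them rose. Sfxn1, the mitochondrial serine carrier, went from 203 ± 15.1 to 442 ± 27.8 CPM on the NPD (log2 1.12 ± 0.14, adjusted p = 8.1e-06, edgeR) and from 229 ± 27.4 to 363 ± 42.7 CPM on the HPD (log2 0.67 ± 0.15, adjusted p = 0.0059). Slc25a12, the aspartate and glutamate exchanger, rose by 0.80 ± 0.20 and 0.97 ± 0.22, and Slc25a15, the ornithine carrier of the urea cycle, by 0.49 ± 0.15 and 0.57 ± 0.16. With all 16 liver libraries Slc25a15 was not called on either diet (adjusted p = 0.063 and 0.070). In eWAT, 3 of 10 rose on the NPD and 1 on the HPD, Slc25a26, whose adjusted p was 0.052 without Cort HPD replicate 4, and with library totals 1 and 0 rose. With the scaling factors, 4.05% of all genes in eWAT rose on the NPD and 3.46% on the HPD.

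Genes that sense or answer amino acid supply gave a mixed picture in liver. Of 25 tested, 4 fell with Cort on the HPD, where 5.14% of all genes fell. These 4 were Ddit3, Cebpb, Chac1 and Trib3, targets or partners of the stress factor ATF4. Ddit3 was at 16.9, 52.4 and 14.0 CPM in Veh HPD and at 6.73 to 7.21 CPM in Cort HPD (log2 -1.97 ± 0.35, adjusted p = 0.0017, edgeR), and at 82.5 CPM in the library left out. It was also the 1 gene of the list that rose with the HPD under Veh (log2 1.81 ± 0.35, adjusted p = 0.048), a call kept in 5 of 23 alternatives. Of all genes, 0.105% rose in that comparison. Trib3 was at 20.3, 88.0 and 10.7 CPM in Veh HPD and 7.04 to 13.6 CPM in Cort HPD, with a call kept in 6 of 23 alternatives. Among the fitted Veh HPD libraries, the replicate 2 that was highest for Ddit3 and Trib3 was highest for Slc38a2 (101 CPM), Slc3a2 (48.3 CPM) and Slc1a2 (63.3 CPM). All other members were highest in another of these libraries, and Slc38a3 (300 CPM), Slc43a1 and Slc1a5 were lowest in replicate 2. In the library left out, Slc3a2 was at 154 CPM, but Slc38a2 was at 58.5 CPM, the lowest of the group. On the NPD, Asns, Atf5 and Depdc5 rose and Cebpb fell with Cort, and with all 16 libraries the adjusted p of Asns was 0.12 and that of Depdc5 0.065. In the main fit 6.84% of all genes rose there and 5.79% fell. In eWAT 1 of 25, Rragc, rose on the NPD (log2 0.51 ± 0.12, adjusted p = 0.0062, edgeR), where 4.05% of all genes rose.

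Enzymes that act on what the members carry, 24 tested in liver, had at least 1 call in each of the 4 liver comparisons of diet or Cort. Of these, 4 rose on the HPD with Cort, among them Asl, Sdsl and Arg1, and with library totals 2 rose and 2 fell. With the scaling factors, 4.75% of all genes rose in this comparison. On the NPD, Asl, Sdsl, Cps1 and Gpt2 rose and Otc, Glud1, Oat and Tat fell, of which Asl, Sdsl and Cps1 were called with all 16 liver libraries. In the main fit 6.84% of all genes rose on the NPD and 5.79% fell. Between the diets under Cort, 5 rose and 0 fell, among them Oat, Arg1, Tat and Ass1, and these named genes were not called with all 16 liver libraries. With library totals 3 rose and 1 fell. Of all genes, 3.08% rose and 2.8% fell between the diets under Cort with the scaling factors. Arg1, which uses the arginine that Slc7a2 carries, went from 1067 ± 107 to 1595 ± 172 CPM (log2 0.58 ± 0.16, adjusted p = 0.035, edgeR), where Slc7a2 had a log2 change of 0.02. Gls2, the liver glutaminase, was the 1 enzyme that rose with the HPD under Veh (log2 0.75 ± 0.15, adjusted p = 0.047), a call kept in 7 of 23 alternatives, where Slc38a3 had 0.59. Of all genes, 0.105% rose in that comparison. In eWAT, Glud1 rose with Cort on both diets (log2 0.78 ± 0.13 and 0.81 ± 0.13).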

How the data were processed

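RNA of eWAT and liver was sequenced in 32 QuantSeq libraries. The deposited table holds the authors' raw, unnormalized counts for each Ensembl gene. The submitters' processing notes name GRCm38 and mm10 as builds, and R 4.0.3 and limma as tools. The aligner, the counting program, the strand setting and the handling of duplicate reads are not given in the sources used here. Symbols and positions came from GENCODE vM21 (47224 of 47643 IDs), and a gene that overlapped a member had 0 counts in each case. Motifs were searched in RefSeq promoter windows of GRCm38.p6.

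All tests used edgeR 4.0.16 in R 4.3.3. Each tissue was fitted with 1 mean per group and no covariate, after filterByExpr (minimum count 10, minimum total count 15), TMM scaling (factors 0.754 to 1.11 in liver, 0.928 to 1.06 in eWAT) and the quasi-likelihood test. A gene was called at a Benjamini-Hochberg adjusted p under 0.05 over all genes tested. CPM used the TMM-scaled totals, with factors taken within each tissue. Liver Veh HPD replicate 4 was left out of the liver fits. Cort was tested against Veh within a diet, the HPD against the NPD within a treatment, then their interaction and differences between tissues in a joint fit. Alternatives were RLE factors, library totals, DESeq2 1.42.0, limma 3.58.1 voom with quality weights, no filter, only the groups compared, the replicate number as a block, each library left out, and all liver libraries. Same-numbered Veh NPD and Veh HPD liver libraries deviated together (correlations 0.127 to 0.204 in 3 pairs), while other pairs of groups did not do so throughout. The steps were tested on simulated data.

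Replicate libraries differed by more than counting noise (mean chi-squared per gene 15.4 to 208 over 48 pairs, where noise alone gives 1), so the spread between libraries, more than depth, sets the precision. The labels do not say that replicates were separate mice, and the p-values measure the spread between these libraries. The members and the gene lists were chosen with earlier results of these data known. All 10 members are named, and from each other list at most 3 called genes a direction, by smallest p, and partner genes of a member. Genes named beyond that, among them Slc38a5, Cyp2e1 and the further genes called in liver, were chosen after their values were seen. Some genes of the other lists are counted but not reported here by name.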

Additional observations from a re-analysis of the deposited data

Results flagged for a closer look

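In all, 6 transporter values in eWAT stood far from the other 3 libraries of their group by Dixon's test, out of 70 groups tested, where chance gives about 1 in 20, or 3.5. In Cort HPD replicate 4, the library with epididymis and testis transcripts, Slc7a5 was at 84.6 CPM against 1.68 to 8.04, Slc38a3 at 3.73 CPM against 0 to 0.532 and Slc1a2 at 0.515 CPM against 0. In Cort NPD replicate 2, Slc38a3 was at 1.45 CPM and Slc1a2 at 0.291 CPM, against 0 in the rest of the group for both. Slc1a2 was at 0.874 CPM in Veh NPD replicate 3 and at 0 in the other Veh NPD libraries. Where the other 3 libraries of a group are at 0, any count passes this test. Such values therefore cannot be set against the 3.5.

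The mean Cort effect differed between liver and eWAT by edgeR's test of the difference for Slc3a2 (log2 -0.99), Slc38a2 (-0.67) and Slc16a10 (-0.63), each lower in liver.

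The liver library that was left out of the fits, Veh HPD replicate 4, held 4 members above the range of all 15 fitted liver libraries. Slc3a2 was at 154 CPM against 21.3 to 53.4, Slc7a2 at 454 against 195 to 439, Slc7a5 at 2.15 against 0 to 1.34 and Slc1a5 at 2.81 against 0.425 to 2.49. The sum of 8 markers of pericentral hepatocytes was 716 CPM there and at least 1670 CPM in every fitted liver library, with 4 of the 8 (Oat, Lgr5, Axin2 and Cyp1a2) within the fitted range, and its part in these values was not tested.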

How the results depend on the processing

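Of 14 member results called, 6 were called in every alternative, 0 of 364 alternatives reversed a direction, and 50 ended a call. For Cort on the HPD in eWAT, 4 members were called and 2 were in a fit of only the groups compared. For the HPD under Cort in eWAT, 0 were called, and 1 by DESeq2 and by a fit of only the groups compared. In liver, Cort on the HPD gave 2 calls, 1 with all liver libraries and 5 with library totals. Cort on the NPD gave 1, against 0 with all liver libraries and 2 by voom with quality weights. The HPD under Cort gave 2, against 0 with all liver libraries and 1 (Slc38a4) with no filter or only the groups compared. With library totals it gave 1 call of another gene, Slc1a2, which was lower, and neither Slc38a4 nor Slc38a3 was called. The HPD under Veh and the interaction gave 0 calls, and 1 each by DESeq2. The cause of these changes was not tested, beyond the libraries that each setting adds or drops. With 1 library left out, the counts were 0 to 1 for the HPD under Cort in eWAT, 0 to 3 for Cort on the HPD in liver, 1 to 2 for Cort on the NPD in liver, 0 to 2 for the HPD under Cort in liver and 0 to 1 for the HPD under Veh in liver.

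With the replicate number as a block, the HPD under Cort in liver gave 1 call in place of 2, since Slc38a3 had an adjusted p of 0.079, and Slc7a5 in eWAT had an adjusted p of 0.12. The block ended no other member call. Over all groups the numbers did not pair the samples, since same-numbered libraries of different groups had correlations of their deviations from -0.088 to 0.238 over 24 pairs in eWAT (1 over 0.1) and from -0.162 to 0.267 over 21 pairs in liver (6 over 0.1). The 3 liver pairs of Veh NPD and Veh HPD were all over 0.1, at 0.127 to 0.204, and for that comparison the block gave 0 member calls, as the fit without it did, and 27 calls over all genes in place of 21.

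Counts over all genes moved by more than 1.5 times as follows. DESeq2 called 113 and 126 genes for the HPD under Veh in liver and eWAT (edgeR 21 and 9), 195 for the HPD under Cort in eWAT (74), 130 and 14 for the interaction in liver and eWAT (14 and 2), and 479 for the tissue difference of the diet effect (202). All 16 liver libraries gave 998 for Cort on the NPD (1565), 371 and 7 for the HPD under Cort and Veh (729 and 21), 1 for the interaction and 87 for that tissue difference. Library totals gave 16 for the HPD under Veh in eWAT, 0 and 23 for the interaction in eWAT and liver, and 365 for the tissue difference. Voom gave 34 and 46 for the HPD under Veh in eWAT and liver, 120 for the HPD under Cort in eWAT and 1 for its interaction. No filter gave 30 and 56 for the HPD under Veh, 4 and 72 for the interaction and 129 for the tissue difference. Fits of only the groups compared gave 4 and 165 for the HPD under Veh and Cort in eWAT, the block 9 for the eWAT interaction and RLE factors 9 for that of liver. With library totals the share of called genes that were higher went from 61.9% to 78.6% for the HPD under Veh in liver, from 41.9% to 53.4% for the HPD under Cort in eWAT, from 22.2% to 37.5% for the HPD under Veh in eWAT, from 50.0% to 21.7% for the liver interaction, from 50.0% to 38.9% for the tissue difference of Cort and from 31.2% to 9.59% for that of diet. Depth limits the members near the floor of 3 counts, which are Slc38a3, Slc38a4 and Slc1a2 in eWAT and Slc7a5, Slc43a1 and Slc1a5 in liver.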
